A study of Mus musculus with 4 samples.

Results

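Met-low and Met-high populations of the mouse melanoma cell line B16-F10 were compared for 10 genes of transforming growth factor-beta (TGF-beta) signaling, namely the ligands *Tgfb1*, *Tgfb2* and *Tgfb3*, the receptors *Tgfbr1* and *Tgfbr2*, and the intracellular transducers and inhibitors *Smad2*, *Smad3*, *Smad4*, *Smad7* and *Skil*. The genes were chosen by name, and every array probe whose RefSeq accession belonged to them was taken, which gave 16 of 39429 probes. Of the 10 genes, 6 had 2 probes and 4 had 1 probe. All 10 were among the 11958 genes tested, out of 20832 genes that had a named probe. In Met-high cells *Tgfb1* was 2.93-fold higher and *Tgfb2* was 2.95-fold lower than in Met-low cells, whereas the remaining 8 genes did not pass the test.

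B16-F10 cells, a malignant melanoma line kept in serum-containing medium, were stained for cell-surface Met, the receptor of hepatocyte growth factor, and sorted by flow cytometry into Met-low and Met-high cells. Both populations came from that line with no other treatment or genetic change named, and each was cultured for 3 days after the sort. For each population 2 samples were prepared independently, and the Cy3-labelled RNA of each sample was read on an Agilent mouse array of its own, which gave 4 arrays in all. The populations were therefore defined by a surface gate set before the culture, and surface Met at the time of RNA preparation was not analysed here.

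TGF-beta ligands are secreted in a latent form and, once released, bind a type II receptor kinase that phosphorylates a type I receptor kinase. The type I receptor phosphorylates the receptor-regulated Smads, which join a common Smad, enter the nucleus and regulate target genes. Inhibitory Smads and the Ski family of co-repressors restrain this signal and are themselves induced by it. In melanocytes and melanoma cells the pathway is known for growth arrest, for effects on pigment genes and for invasive behavior at later stages.

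The promoters of *Tgfb1* and *Tgfb2* are shown because these ligands differed between the populations in opposite directions. The sequences are those of RefSeq (mouse assembly GRCm38.p6), 5′ to 3′ on the strand of the gene, from 250 bases before the transcription start to 50 bases after it. The window of *Tgfb1* is chr7:25686752-25687051 on the plus strand and that of *Tgfb2* is chr1:186705940-186706239 on the minus strand. Capitals mark matches on either strand to the GC box GGGCGG, the TATA box TATAAA or the E-box CACGTG.
Tgfb1: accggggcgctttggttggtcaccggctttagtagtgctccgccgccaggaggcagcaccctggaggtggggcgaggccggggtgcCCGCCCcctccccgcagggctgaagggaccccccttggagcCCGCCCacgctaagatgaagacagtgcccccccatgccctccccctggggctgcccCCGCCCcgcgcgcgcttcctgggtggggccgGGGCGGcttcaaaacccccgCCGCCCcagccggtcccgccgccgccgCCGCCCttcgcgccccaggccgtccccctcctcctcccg
Tgfb2: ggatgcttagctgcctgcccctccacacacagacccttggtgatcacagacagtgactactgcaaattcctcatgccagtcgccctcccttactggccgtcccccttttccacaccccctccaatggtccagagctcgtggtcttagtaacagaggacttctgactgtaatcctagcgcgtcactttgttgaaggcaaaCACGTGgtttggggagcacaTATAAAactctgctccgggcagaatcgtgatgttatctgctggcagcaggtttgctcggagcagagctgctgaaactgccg
The window of *Tgfb1* was 77.0% G and C, against a median of 52.7% over all 32851 promoters of the table, and held 30 CpG dinucleotides and 6 GC boxes, but no TATA box or E-box. The window of *Tgfb2* was 54.3% G and C and held 10 CpG dinucleotides, a TATA box whose leading base lay at -31 from the start, and an E-box at -51, but no GC box. None of these matches overlapped another. Over all promoters of the table, 35.7% held a GC box, 13.6% a TATA box and 7.15% an E-box. The Smad palindrome GTCTAGAC, the AP-1 site TGACTCA, the cyclic AMP element TGACGTCA and the core CATGTG of the M-box, a melanocyte promoter element, were in 0.213%, 5.2%, 1.79% and 14.2% of promoters and in neither of these windows. Of the 10 genes, 5 had an entry in the table, the others being *Tgfbr1*, *Tgfbr2* and *Smad3*. Of these, *Smad3* and a promoter of *Tgfbr1* held 2 GC boxes each.

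All 4 arrays lay on 1 slide and came from 1 scan, where positions 1 and 2 held Met-low and positions 3 and 4 held Met-high RNA. Effects of position on the slide and of population cannot be told apart. Per array, the 75th percentile of the intensity lay between 858 and 1331, and at most 53.6% of 43020 spots were well above background by the scanner's own flag. Values below are either the scanner's background-corrected intensity or its log2 after division by that 75th percentile, called the log2 signal, and a log2 ratio is the mean log2 signal in Met-high minus that in Met-low cells. Of the melanocyte markers, 8 of 8 were well above background on all 4 arrays. *Met* itself (NM_008591) had log2 signals of -0.26 and -0.89 in Met-low and 1.03 and -0.43 in Met-high cells, so the lower Met-high array, replicate 2, lay between the Met-low arrays (log2 ratio 0.87 ± 0.51 SE, limma adjusted p = 0.333). Without Met-high replicate 2 the ratio of *Met* was 1.61 and passed the test (limma adjusted p = 0.0196), whereas leaving out Met-high replicate 1 gave 0.14 (limma adjusted p = 0.819). For the 10 TGF-beta genes, values without Met-high replicate 2 are given where leaving it out changed a call or moved a ratio by over 1.5 times, and for both ligands that passed.

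Among all genes tested, 690 (5.77%) passed a Benjamini-Hochberg adjusted p of 0.05 by limma, 233 (1.95%) higher and 457 (3.82%) lower in Met-high cells, and the median log2 ratio was 0.10. Of the 10 TGF-beta genes, 1 was higher and 1 was lower, and their median log2 ratio was 0.09. Both arrays of one population lay above both of the other in 8 of the 10 genes, 5 with Met-high and 3 with Met-low above, while 58.3% of all genes showed such separation, 35.7% with Met-high and 22.6% with Met-low above. A difference above 2-fold, without regard to a test, was seen in 2 of the 10 genes and in 7.73% of all genes. With 2 arrays per population, separation of this kind was thus common. The 8 genes that did not pass the test had log2 ratios between -0.73 and 0.38. The arrays measured RNA from whole cell populations, in which fewer cells carrying a transcript and less of it per cell cannot be told apart.

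**Figure D1:**
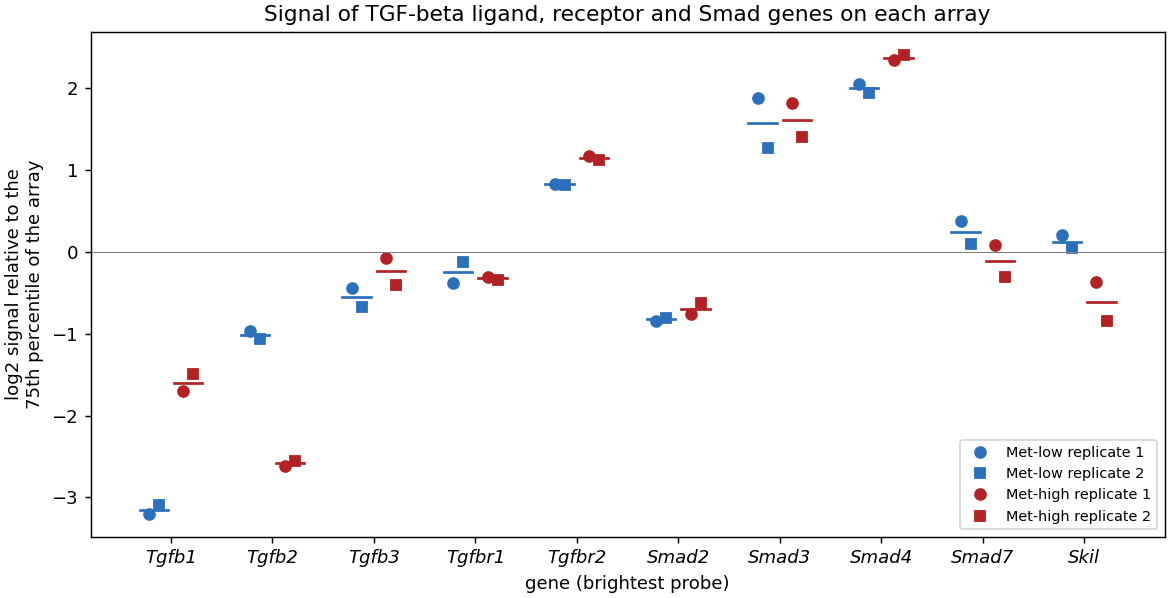
Log2 signal, scaled to the 75th percentile of the array, of the brightest probe of each of the 10 genes (circles, replicate 1; squares, replicate 2; blue, Met-low; red, Met-high; lines, mean of the 2 arrays). *Tgfb1* lay at -3.20 and -3.10 in Met-low and at -1.70 and -1.50 in Met-high cells, *Tgfb2* at -0.97 and -1.07 and at -2.61 and -2.55, and heights of different genes are signals of different probes and are not compared.

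*Tgfb1* (NM_011577), the most widely expressed ligand of the family, had intensities of 101 and 160 in Met-low and of 267 and 393 in Met-high cells. Its mean log2 signal was -3.15 ± 0.07 (SD, n = 2) for Met-low cells and -1.60 ± 0.14 (SD, n = 2) for Met-high cells. Both Met-high arrays lay well above both Met-low arrays, and the distance between the populations was larger than the spread within either. The log2 ratio was 1.55 ± 0.17 SE (limma adjusted p = 0.0132), with a 95% interval of 2.19-fold to 3.92-fold higher in Met-high cells. With Met-high replicate 2 left out, the ratio was 1.45 (limma adjusted p = 0.0120).

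*Tgfb2* (NM_009367), a ligand known for roles in neural crest and epithelial development, was read by 2 probes. The brighter probe had intensities of 481 and 635 in Met-low and 140 and 189 in Met-high cells, or log2 signals of -1.02 ± 0.07 (SD, n = 2) and -2.58 ± 0.04 (SD, n = 2). The second probe had intensities of 138 and 171 in Met-low and 49.6 and 52.0 in Met-high cells. Both probes were well above background on all 4 arrays, and on both the Met-low arrays were the higher ones without overlap. The log2 ratio of the gene was -1.56 ± 0.16 SE (limma adjusted p = 0.0108), with a 95% interval from -1.95 to -1.17. With Met-high replicate 2 left out, the ratio was -1.59. When each probe was fitted by itself, 2.63% of 19796 probes passed, and the ratios of the *Tgfb2* probes were -1.56 (adjusted p = 0.0244) and -1.40 (adjusted p = 0.0435). Probes of a gene read the same RNA and are not replicates. By the size of the ratio, *Tgfb2* and *Tgfb1* ranked 398 and 409 among the 11958 genes.

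*Tgfb3* (NM_009368), the third ligand, gave intensities of 689 and 829 in Met-low and 794 and 849 in Met-high cells. Its log2 signals were -0.44 and -0.67 against -0.07 and -0.40, so the Met-high arrays were above the Met-low arrays by a narrow margin. The log2 ratio of 0.32 ± 0.19 SE did not pass the test (limma adjusted p = 0.350, 95% interval -0.17 to 0.81). Leaving out 1 array moved the ratio between 0.16, without Met-high replicate 1, and 0.48, without Met-high replicate 2, and neither value passed (adjusted p = 0.759 and 0.380). The upper end of that interval lay below the lower end of the interval for *Tgfb1*, which was 1.13, but the difference between the ligands was not tested.

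**Figure D2:**
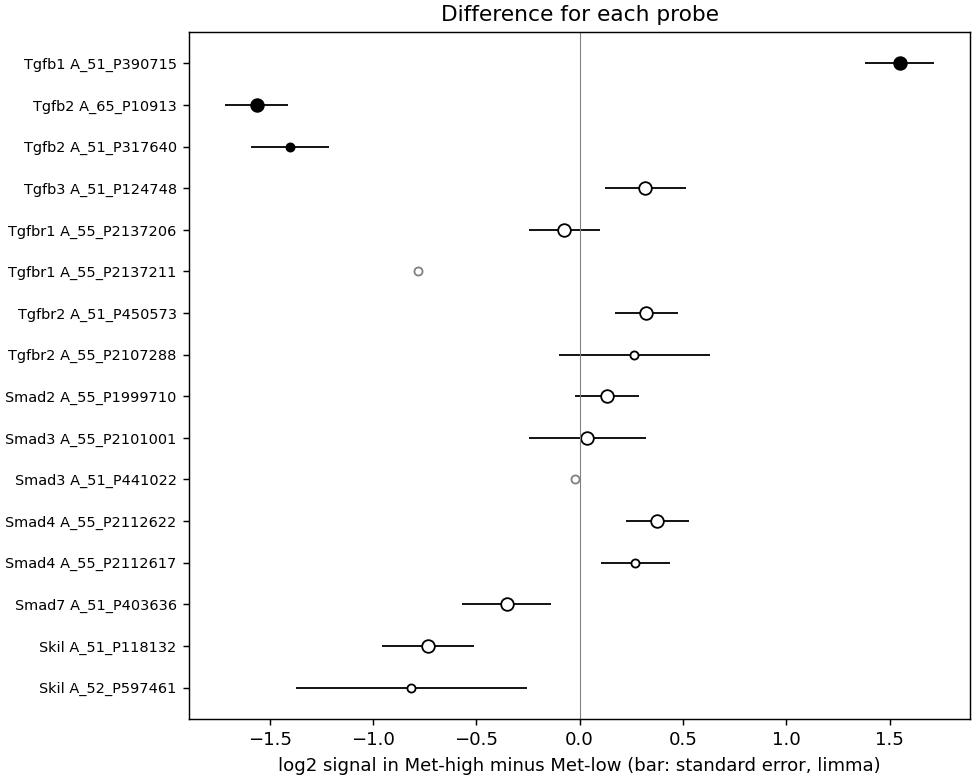
Mean log2 signal in Met-high minus that in Met-low cells for each of the 16 probes, with the limma standard error as a bar (filled, adjusted p under 0.05 over all probes; large symbols, the probe used for the gene; grey without a bar, the 2 probes too dim to be tested). Only the *Tgfb1* probe, at 1.55, and the *Tgfb2* probes, at -1.56 and -1.40, were filled.

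The receptors did not pass the test. *Tgfbr2* (NM_009371), the type II receptor that binds the ligand, had log2 signals of 0.83 and 0.81 in Met-low and 1.18 and 1.12 in Met-high cells (log2 ratio 0.32 ± 0.15 SE, limma adjusted p = 0.250, 95% interval -0.06 to 0.71). Its second probe, dimmer but well above background on all 4 arrays, had intensities of 89.5 and 102 in Met-low and 123 and 81.3 in Met-high cells, which overlapped. *Tgfbr1* (NM_009370), the type I receptor kinase, had log2 signals of -0.38 and -0.12 in Met-low and -0.31 and -0.34 in Met-high cells. Both of its Met-high arrays fell between the Met-low arrays, and the log2 ratio was -0.07 ± 0.17 SE (limma adjusted p = 0.817, 95% interval -0.51 to 0.36). The ratio was -0.20 without Met-low replicate 1 and 0.057 without Met-low replicate 2. Its other probe had intensities of 57.5, 32.7, 54.6 and 8.89 on Met-low replicates 1 and 2 and Met-high replicates 1 and 2, was well above background only on replicate 1 of each population, and was not tested.

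The Smads that carry the signal did not pass the test either. *Smad4* (NM_008540), the common partner, had log2 signals of 2.05 and 1.95 in Met-low and 2.34 and 2.40 in Met-high cells, without overlap. Its log2 ratio was 0.38 ± 0.16 SE (limma adjusted p = 0.204, 95% interval -0.02 to 0.77), and that of its second probe was 0.27 (adjusted p = 0.399). *Smad2* (NM_001252481), a receptor-regulated Smad, had log2 signals of -0.84 and -0.81 against -0.76 and -0.62 (log2 ratio 0.13 ± 0.16 SE, limma adjusted p = 0.623, 95% interval -0.26 to 0.53). Without Met-high replicate 2 the *Smad2* ratio was 0.063 and without Met-high replicate 1 it was 0.20. *Smad3* (NM_016769), the receptor-regulated Smad that binds DNA directly, had intensities of 3454 and 3205 in Met-low and 3015 and 2942 in Met-high cells. Its log2 signals of 1.87 and 1.27 overlapped with 1.81 and 1.41, since the replicates of each population were farther apart than the populations (log2 ratio 0.04 ± 0.27 SE, limma adjusted p = 0.943, 95% interval -0.65 to 0.72). Leaving out 1 array moved the *Smad3* ratio between -0.27 without Met-low replicate 2 and 0.34 without Met-low replicate 1, with 0.24 without Met-high replicate 2 and -0.17 without Met-high replicate 1. The second *Smad3* probe was well above background only on replicate 1 of each population, with intensities of 54.4 and 27.6 in Met-low and 47.4 and 23.4 in Met-high cells. The sign of the small *Smad2* and *Smad3* ratios turned when arrays were scaled on detected probes only, to -0.013 and -0.11.

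The 2 inhibitors had lower mean signals in Met-high cells, and neither passed the test. *Skil* (NM_011386), the co-repressor SnoN that binds Smads, had intensities of 1119 and 1362 in Met-low and 650 and 608 in Met-high cells. The corresponding log2 signals were 0.13 ± 0.12 (SD, n = 2) and -0.61 ± 0.34 (SD, n = 2), and the populations did not overlap. The log2 ratio was -0.73 ± 0.22 SE, with a 95% interval from -1.28 to -0.19, at an unadjusted p of 0.0179 and a limma adjusted p of 0.118. Met-high replicate 2 was the lower array, and without it the ratio was -0.49 (adjusted p = 0.358). A second *Skil* probe had intensities of 245 and 166 in Met-low and 136 and 73.8 in Met-high cells. Once scaled to each array, its signal on Met-high replicate 1 lay above that on Met-low replicate 2 (log2 ratio -0.81 ± 0.56 SE, adjusted p = 0.444). *Smad7* (NM_001042660), the inhibitory Smad, had intensities of 1222 and 1426 in Met-low and 909 and 895 in Met-high cells. Its log2 signals were 0.38 and 0.10 in Met-low and 0.08 and -0.31 in Met-high cells, separated by a narrow margin, and the log2 ratio was -0.35 ± 0.21 SE (limma adjusted p = 0.343, 95% interval -0.89 to 0.18). With Met-high replicate 2 left out, the ratio was -0.16 (limma adjusted p = 0.811).

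The probes of *Tgfb1*, *Tgfb3* and *Skil* were each printed as 10 spots per array, and none of these spots carried an outlier flag. The SD among the 10 spots of *Tgfb1* was between 0.06 and 0.16 on the log2 scale. All of its Met-low spots were at or below -2.87 and all of its Met-high spots at or above -1.80. For *Skil* the lowest Met-low spot was at -0.14 and the highest Met-high spot at -0.15, so the spots nearly touched. For *Tgfb3* the spots of Met-high replicate 2, from -0.46 to -0.36, lay within those of Met-low replicate 1, from -0.50 to -0.34. Spots on an array share the RNA sample, so their spread shows the precision of the array reading and not that of the population.

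**Figure D3:**
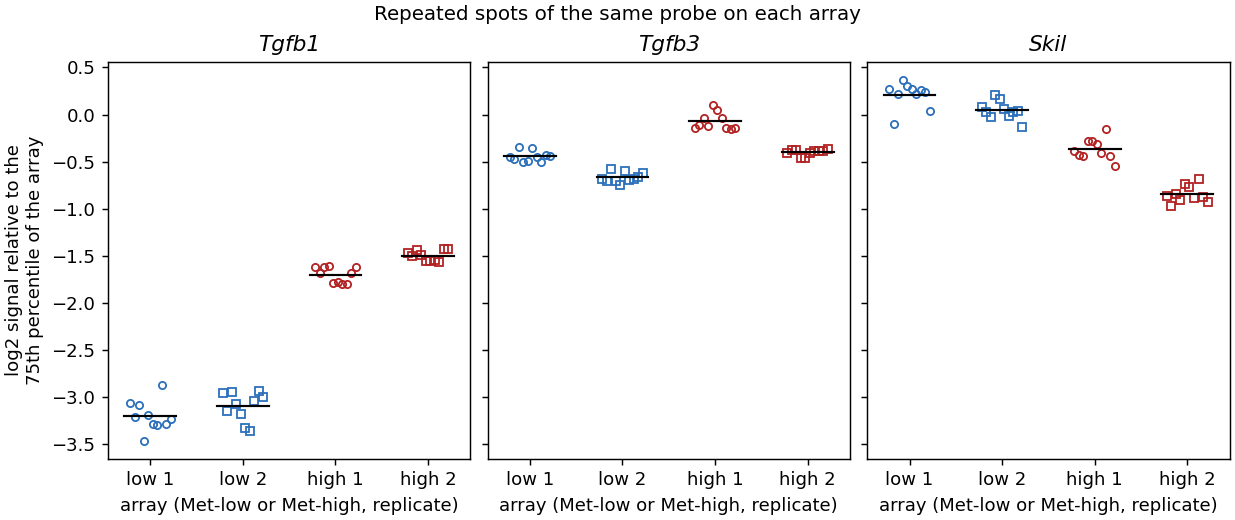
Log2 signal of each of the 10 spots of the *Tgfb1*, *Tgfb3* and *Skil* probes on the 4 arrays (blue, Met-low; red, Met-high; black lines, mean of the 10 spots). The *Tgfb1* spots left a gap between -2.87 and -1.80, the *Tgfb3* spots of Met-low replicate 1 and Met-high replicate 2 overlapped, and the *Skil* spots nearly met at -0.14 and -0.15.

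The TGF-beta pathway outside these 10 genes was read from 5 lists arranged by role, 84 genes in all, of which 5 stood on 2 lists and 61 were tested. Of the 61, 8 were lower and 2 were higher in Met-high cells, or 16.4% against 5.77% of all genes, and the median log2 ratio was -0.24. Without Met-high replicate 2 the counts were 8 lower and 1 higher. Among genes well above background on all 4 arrays they were 8 lower and 1 higher. The 8 lower genes were not the same ones in each count. *Tgfbr3* was not among them without Met-high replicate 2, and 1 target gene was not tested under the filter on all 4 arrays. The lists were drawn from general knowledge of the pathway, but with earlier results of these data known, so these shares are not independent of the data. Many of the listed genes also respond to other signals.

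Genes of latency and activation, which keep the secreted ligand inactive or release it, gave 0 calls by limma among 10 tested. Of the 10, 4 were at an unadjusted limma p under 0.05, against 3136 of all 11958 genes tested. The median log2 ratio of the 10 was -0.51. Means were lower in Met-high cells for 8 of 10, whereas 59.5% of all genes tested had a higher mean there. The brightest were *Itgb1*, an integrin chain (log2 ratio -0.38), *Ltbp3*, a latent TGF-beta binding protein (-0.24), and *Furin*, the protease that cleaves the ligand precursors (0.42). The 4 genes under that unadjusted p, all lower in Met-high cells, were not among these. A second probe of *Itgb1* gave -0.80, and its ratio lay between -0.68 without Met-low replicate 2 and -0.07 without Met-low replicate 1, with -0.19 without Met-high replicate 2. The ratio of *Ltbp3* turned to 0.19 without Met-low replicate 1 and to 0.04 without Met-high replicate 2.

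Co-receptors and other receptors gave 1 call among 5 tested, while 5.77% of all genes passed. *Tgfbr3* (NM_011578), the co-receptor betaglycan that presents ligand and in particular Tgfb2 protein to the type II receptor, had log2 signals of -3.24 and -3.27 in Met-low and -4.25 and -4.42 in Met-high cells. It was 2.11-fold lower in Met-high cells without overlap (log2 ratio -1.08 ± 0.16 SE, limma adjusted p = 0.0277). The call was lost without Met-low replicate 1 (adjusted p = 0.0686), Met-low replicate 2 (0.0558) or Met-high replicate 2 (0.0635). It was also lost with normexp background correction (log2 ratio -0.54, adjusted p = 0.107) and with a variance trend (adjusted p = 0.0641), and in all it was kept under 9 of 16 alternatives. *Eng*, *Acvrl1* and *Acvr2b*, the brightest of the others, had log2 ratios of -0.21, 0.25 and -0.02. The ratio of *Eng* was -0.08 without Met-high replicate 2 and 0.12 without Met-low replicate 1.

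Ligands and antagonists of the activin branch, which shares Smad2 and Smad3, gave 2 calls among 4 tested, while 5.77% of all genes passed. Of the 4, *Gdf11* was tested only because both Met-high arrays, where it is the higher, were well above background. *Fstl1*, a secreted follistatin-like glycoprotein, had log2 signals of -0.98 and -1.73 in Met-low and -3.45 and -3.63 in Met-high cells, and was 4.55-fold lower (limma adjusted p = 0.0199). *Gdf11*, a ligand close to myostatin, had log2 signals of -4.57 and -4.74 against -3.78 and -3.50 but was well above background on only 1 of the 2 Met-low arrays, so no fold is given for it. Its limma adjusted p of 0.0415 was conditional on that filter, and it was not tested under the filter on all 4 arrays. Its call was lost without Met-low replicate 1 (adjusted p = 0.0669), Met-low replicate 2 (0.103) or Met-high replicate 2 (0.103), and in all it was kept under 7 of 15 alternatives. The antagonist *Fstl3* had a log2 ratio of -0.44 and the ligand *Nodal* 0.17, neither past the test.

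Smad partners and regulators gave 0 calls by limma among 20 tested, with a median log2 ratio of -0.14. Of the 20, 2 were at an unadjusted limma p under 0.05, against 3136 of all 11958 genes tested. The brightest were *Fkbp1a*, which binds the inactive type I receptor, *Hgs*, an endosomal adaptor, and *Nedd4l*, a ubiquitin ligase for Smads, with log2 ratios of 0.27, 0.21 and -0.22. A second probe of *Nedd4l* gave -1.27.

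Commonly cited TGF-beta target genes were the list with the most calls and the most genes tested. The share called was lower than among the 4 tested genes of the activin branch. Of 25 tested, 6 were lower and 1 was higher in Met-high cells, or 28% against 5.77% of all genes, with a median log2 ratio of -0.51. In 14 of them, or 56%, the Met-low arrays were the higher ones without overlap, against 22.6% of all genes, and in 4 the Met-high arrays were. These shares describe the list, which was chosen with earlier results of these data known, and were not tested as a set. The list was not divided by whether TGF-beta raises or lowers a gene.

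*Timp3* (NM_011595), an inhibitor of metalloproteinases, had log2 signals of 0.62 and 0.53 against -2.16 and -2.13 and was 6.59-fold lower (limma adjusted p = 0.0050). *Tgfbi* (NM_009369), an extracellular matrix protein named for its induction by TGF-beta, had log2 signals of -0.22 and -1.01 against -3.30 and -3.02 and was 5.85-fold lower (limma adjusted p = 0.0163). The Met-low arrays of both genes lay above the Met-high arrays by far more than the distance between replicates.

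*Cdkn1a*, the cell cycle inhibitor p21, was 2.90-fold lower (limma adjusted p = 0.0183), with intensities of 15063 and 18266 in Met-low and 3944 and 6353 in Met-high cells, and its other probe had a log2 ratio of -2.73. *Gadd45b*, a stress-response gene, was 2.31-fold lower (limma adjusted p = 0.0284), with log2 signals of -0.55 and -0.30 against -1.74 and -1.52, but without Met-low replicate 2 the adjusted p was 0.0592. *Col1a2*, a chain of type I collagen, was 2.14-fold lower (limma adjusted p = 0.0311), with intensities of 480 and 803 in Met-low and 214 and 299 in Met-high cells, and its call was lost without Met-low replicate 2 (adjusted p = 0.0803) or Met-high replicate 1 (0.0503). *Timp1*, another metalloproteinase inhibitor, ran the other way, with log2 signals of -1.94 and -1.03 in Met-low and 0.79 and 1.06 in Met-high cells, a 5.32-fold higher level (limma adjusted p = 0.0222). The targets *Id1*, *Id2* and *Id3*, inhibitors of differentiation and the brightest genes of the list without a call, had log2 ratios of -0.16, -0.11 and 0.28.

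*Col1a2* is also a fibroblast marker, and the summed level of the 7 fibroblast markers, in units of the 75th percentile of the array, was 0.648 to 0.692 in Met-low and 0.326 to 0.368 in Met-high cells. Of the 7, *Col1a2* alone was well above background on all 4 arrays. Without it the sum was 0.139 and 0.0883 in Met-low and 0.119 and 0.0563 in Met-high cells, which overlapped. *Col1a1* was well above background on 1 Met-low array, *Col3a1* on 1 Met-high array, and *Dcn*, *Lum*, *Pdgfra* and *Thy1* on no array. The melanocyte markers summed to 1396 to 1700 in Met-low and 1502 to 1707 in Met-high cells. Of the 7 leukocyte markers, *Csf1r*, *Itgam* and *Cd3e* were well above background on all 4 arrays and *Adgre1* on 1 Met-low array. *Ptprc* and *Lyz2* were so on none, and *Cd68* had no named probe. The leukocyte sum was 5.59 to 6.23 in Met-low and 5.25 to 6.62 in Met-high cells. Of the 4 endothelial markers, *Kdr* was well above background on all arrays, *Pecam1* on 1 Met-low and both Met-high arrays, and *Cdh5* and *Tek* on none. The endothelial sum was 5.48 to 6.31 in Met-low and 6.72 to 8.44 in Met-high cells. The part of the endothelial sum in any result was not tested.

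**Figure D4:**
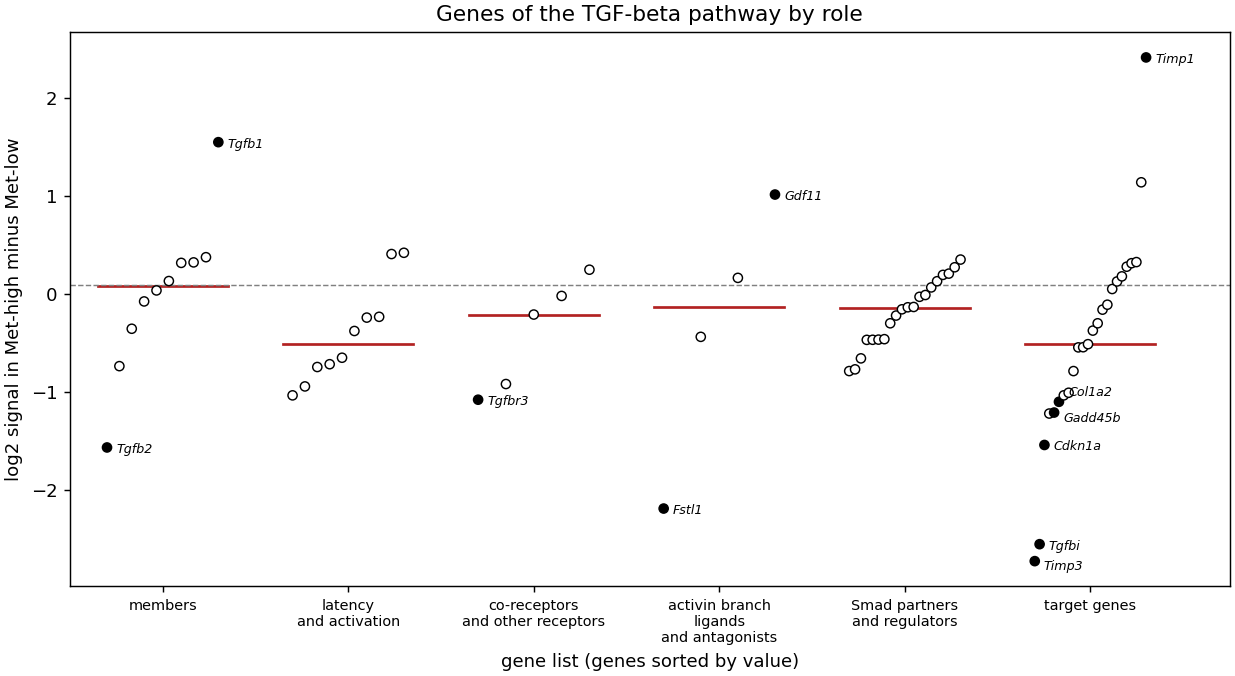
Log2 ratio, Met-high minus Met-low, of the tested genes on the 5 lists of the TGF-beta pathway and of the 10 ligand, receptor and Smad genes, sorted within each list (filled, limma adjusted p under 0.05; red line, median of the list; dashed line, median of all 11958 genes at 0.10). Of the target genes, 1 is not drawn. The target genes drawn extended from *Timp3* at -2.72 to *Timp1* at 2.41, while *Tgfb1* and *Tgfb2* stood at opposite ends of the 10 genes.

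The ratios of the ligands were recomputed under 16 alternatives of background correction, scaling, filtering, probe summary, arrays and test. *Tgfb1* kept a positive ratio, from 1.15 to 1.67, and *Tgfb2* a negative one, from -1.71 to -1.23. Each passed the threshold in 14 of the 16, the exceptions being the test over all genes without a filter on dim probes and the methods' t-test. Leaving out each array in turn gave ratios of 1.45 to 1.65 for *Tgfb1* and -1.61 to -1.51 for *Tgfb2*, all of which passed. *Skil* ranged from -0.97 to -0.49 and passed under 1 alternative, the fit with the replicate number as a block (adjusted p = 0.0230).

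**Figure D5:**
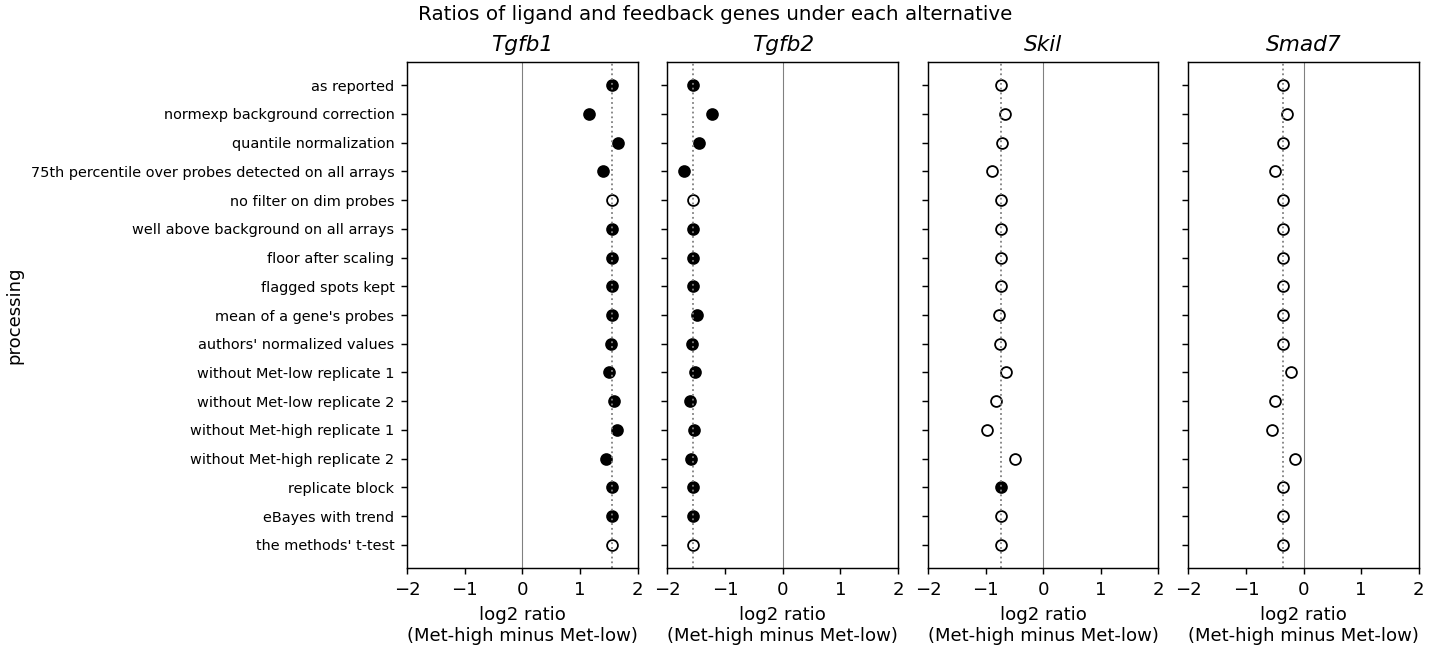
Log2 ratio, Met-high minus Met-low, of *Tgfb1*, *Tgfb2*, *Skil* and *Smad7* as reported and under each of 16 alternatives (filled, adjusted p under 0.05; dotted line, the ratio as reported; solid line, 0). All points of *Tgfb1* lay right of 0 and all points of *Tgfb2*, *Skil* and *Smad7* left of it.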

How the data were processed

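RNA of 2 Met-low and 2 Met-high samples of B16-F10 cells was measured on Agilent 1-colour arrays. The authors deposited the scanner output, with a background-corrected Cy3 intensity and flags per spot, and a table of log2 values. Set against the scanner output, the table held log2 intensities scaled to each array's 75th percentile and then centred per probe on its median (array medians 0.149, -0.0351, 0.0352 and -0.117; 93.3% to 99.8% of probes within 0.01 of this). The file headers name Feature Extraction 11.0.1.1, the submitters' processing notes 10.7.3.1.

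Intensities were floored at 0.01, which no spot reached, converted to log2 and scaled by subtracting the 75th percentile of all spots of the array other than controls. Between 207 and 232 spots per array with outlier flags were left out, and spots of a probe were averaged. Accessions of 27427 of 39429 probes matched a RefSeq gene of mouse assembly GRCm38.p6, which was used for probe names and for the promoter windows. The brightest probe stood for its gene, and genes whose probe was well above background on both Met-low or both Met-high arrays, 11958 in all, were tested with limma 3.58.1 in R 4.3.3 (lmFit, eBayes), two-sided, with Benjamini-Hochberg adjustment over all genes. A permutation of 2 against 2 arrays has 3 splits and cannot give a p below 0.333. Where 1 array remained in a population, its spread was taken from the other population. The number of arrays limits the precision. Each limma p-value sets a difference against a spread between replicate samples that was moderated over all genes tested (prior degrees of freedom 3.30).

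All 10 genes are named with every probe. Of the pathway lists, genes at an adjusted p under 0.05 and the up to 3 brightest others are named, except 1 target gene that is not reported here but is counted in its list. Genes, lists and rules were chosen with earlier results of these data known. On simulated data for Met-high against Met-low cells (11947 genes), the fit recovered 59 of 100 genes changed by 1.5 and 79 of 100 changed by 3 on the log2 scale, with 3 false calls. Alternatives were normexp (offset 50), quantile normalization, the percentile over detected probes, other filters, floor and flags, the mean of a gene's probes, the authors' table, each array left out, the replicate number as a block, a variance trend, a 2-fold threshold and the methods' t-test. Figures were made with Python 3.11.15 and matplotlib 3.10.9.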

Additional observations from a re-analysis of the deposited data

How the results depend on the processing

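Calls depended on the filter, the variance model and the test. Without a filter on dim probes 0 genes were higher and 7 lower in Met-high cells by limma (2660 at an unadjusted p under 0.05), against 233 and 457, and *Tgfb1* (log2 ratio 1.55, adjusted p = 0.0973) and *Tgfb2* (-1.56, adjusted p = 0.0888) missed the threshold, which left 0 and 0 of the 10 genes and 0 of the pathway genes in either direction. By Student's t-test 2211 genes passed the unadjusted threshold, but 1 was higher and 0 were lower after adjustment. *Tgfb1* (1.55, adjusted p = 0.208) and *Tgfb2* (-1.56, adjusted p = 0.196) did not pass, again with 0 of the 10 genes and 0 pathway or target genes. A percentile over detected probes gave 140 higher genes, moved the share of higher calls from 33.8% to 19.0% and the median ratio of all genes from 0.10 to -0.05, and turned *Smad2* (-0.013) and *Smad3* (-0.11), the latter also with quantile normalization (-0.046). A variance trend gave 392 higher genes. With the replicate number as a block 1976 were higher and 1580 lower, 2 of the 10 genes were lower, *Skil* (-0.73, adjusted p = 0.0230) being added, and 25 pathway genes were lower, 13 of them targets. The numbers name only 2 samples per population, the differences between replicates 1 and 2 correlated at r = 0.54 over 11947 genes, and the labels do not say that they pair the samples. Of the pathway genes on 5 lists, 8 lower and 2 higher as reported, 1 was higher with normexp, with the percentile over detected probes, with a filter on all 4 arrays or with the trend, and 1 to 3 with an array left out. Leaving out an array turned the ratio of *Tgfbr1* (range -0.20 to 0.057), *Smad3* (-0.27 to 0.34), *Nodal* (-0.12 to 0.46), *Eng* (-0.53 to 0.12), *Acvr2b* (-0.12 to 0.086) and *Ltbp3* (-0.67 to 0.19), none of which passed the test. The cause of these changes was not tested. Signal over background limits the dim probes of *Tgfbr1* and *Smad3*.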
